A study of Mus musculus with 82 samples.

Results

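Pou3f1, Nes, Pax6, Lhx5, Irx3 and Nkx6-2 are genes of the neural plate and early neural tube outside the Sox and Zic families. They were chosen by name, and the rule that gathers their peaks uses position only. It takes every ChIP-seq peak of the 4 T-box constructs whose midpoint lies within 50 kb of the span of 1 of these 6 genes in the mouse build mm10 (GRCm38). The 6 genes were set beside all 21887 coding genes. Of 132113 peaks in the 4 lists together, 98 met the rule.

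The neural plate is the sheet of ectoderm that folds into the brain and spinal cord. It arises from the epiblast, where Nodal and activin signals induce Eomes and Brachyury, the T-box factors that drive primitive streak fates, and so favour mesoderm and endoderm. Cells that lose these signals take a neural course. Pou3f1 is a POU-domain factor of the epiblast and of the step into neural fate. Pax6, Lhx5, Irx3 and Nkx6-2 are homeodomain factors that pattern the forebrain, eye and neural tube, and Nes encodes nestin, an intermediate filament protein of neural progenitors. How T-box proteins lie around such genes is the question that these peak lists bear on.

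The series holds 82 mouse samples (66 RNA-seq, 12 ChIP-seq and 4 ATAC-seq), and 6 of the ChIP-seq libraries stand behind the 4 lists used here. All 6 came from embryoid bodies of the mouse embryonic stem cell line A2lox.Cre with Eomes and Brachyury knocked out together (dKO) and 1 construct under doxycycline. They were given activin A at 30 ng/ml with doxycycline and taken on day 5. The constructs were dKO+EoGFP and dKO+BraGFP (Eomes or Brachyury with a GFP tag, anti-GFP antibody, 2 libraries each joined in 1 list), dKO+EoV5 (Eomes with a V5 tag) and dKO+EoVP16 (labelled as Eomes with VP16, an activation domain of a viral protein), both with anti-V5 antibody and 1 library each. All the lists therefore describe induced, tagged proteins in cells without the endogenous pair.

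The EoGFP list held 30129 peaks, BraGFP 27588, EoV5 38193 and EoVP16 36203. The names of the lists give different minimum heights: a pileup (fragments stacked at the summit) of 120, 40, 60 and 36 in that order. The smallest pileup was 61 in EoV5 and 36 in EoVP16, and the EoGFP and BraGFP lists give no pileups to check. Counts therefore depend on each list's own threshold, and no count or height is compared between lists as a measure of binding strength. With 1 list per construct there is no replicate and no test. Intervals below are 95% Wilson intervals for shares and exact 95% Poisson intervals for pileups, and both cover counting error only. Library depth is not given by these files.

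Nearly all of the genes had T-box peaks in their neighbourhood, as most coding genes do. EoGFP, BraGFP and EoV5 each had at least 1 peak near 5 of the 6 genes, and EoVP16 near 6 of 6. Over all coding genes the share with at least 1 peak was 81.1% in EoGFP, 76.5% in BraGFP, 83.0% in EoV5 and 84.2% in EoVP16, so having a peak does not set the 6 apart. Within 10 kb, EoGFP and EoVP16 each had a peak at 5 of the 6 and BraGFP and EoV5 each at 4 of the 6, against 65.2%, 71.1%, 53.0% and 62.2% of all coding genes. Within 100 kb every list had a peak at 6 of the 6, against 87.2% of coding genes in EoGFP, 85.3% in BraGFP, 89.9% in EoV5 and 89.6% in EoVP16. The genes differed among themselves in how many peaks they had and from which list.

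EoGFP had 29 peaks near the 6 genes, BraGFP 13, EoV5 22 and EoVP16 34. Pou3f1 had 8 EoGFP, 3 BraGFP, 3 EoV5 and 8 EoVP16 peaks. Nes had 10, 2, 7 and 10 peaks in the same order of lists, the highest count of the 6 in the 3 Eomes lists. Its neighbourhood is also the most crowded, with 6 other coding genes within 50 kb, against a median of 3 over all coding genes (interquartile range 1 to 4). Pax6 had 3, 1, 3 and 4 peaks and Lhx5 had 5, 0, 6 and 8. Irx3 had 3, 5, 3 and 3, the highest BraGFP count of the 6. Nkx6-2 had 0, 2, 0 and 1, the lowest count in each Eomes list. The median coding gene had 3 EoGFP, 2 BraGFP, 3 EoV5 and 3 EoVP16 peaks. The window covers the whole gene span and 50 kb on each side, so longer genes have wider windows. The 6 spans ran from 3010 bp (Pou3f1) to 29515 bp (Pax6), and counts were not adjusted for gene length. Just inside the 50 kb limit lay an EoVP16 peak 49.9 kb from Nkx6-2 and the EoV5 peak 47.9 kb from Pax6. Just outside lay BraGFP peaks 50.4 kb from Pou3f1 and 50.8 kb from Irx3 and an EoV5 peak 51.4 kb from Nes.

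**Figure D1:**
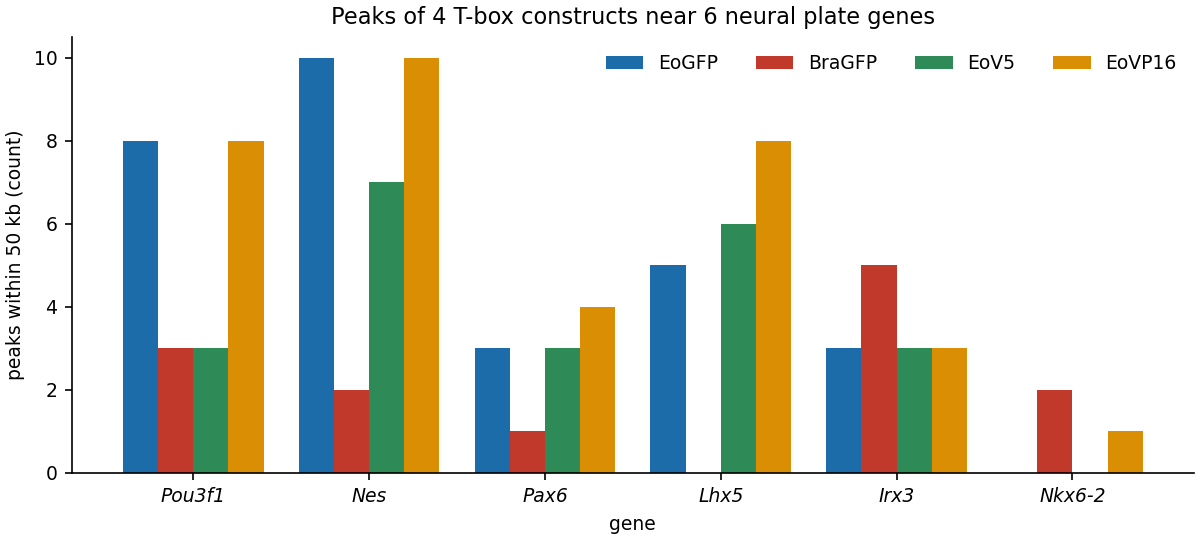
Number of peaks with a midpoint within 50 kb of each gene (vertical axis, count) for the 4 peak lists, as bars that start at 0. Nes has 10 EoGFP and 10 EoVP16 peaks, Lhx5 has no BraGFP bar, and Nkx6-2 has 2 BraGFP peaks and 1 EoVP16 peak only.

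Read against all coding genes, the rarest high counts within 50 kb lay in the Eomes lists, and Irx3 had a high count in BraGFP. The 10 EoGFP peaks of Nes were reached or passed by 1.96% of coding genes, its 10 EoVP16 peaks by 4.53% and its 7 EoV5 peaks by 10.0%. For Pou3f1, 5.48% of coding genes had at least 8 EoGFP peaks and 11.1% at least 8 EoVP16 peaks, whereas its 3 EoV5 peaks were reached by 52.8%. Pou3f1 was the nearest coding gene of 4 of its 8 EoGFP and 5 of its 8 EoVP16 peaks, with its neighbours Utp11 or Fhl3 nearest to the rest. Within 10 kb it had 1 EoGFP and 2 EoVP16 peaks, reached by 65.2% and 43.8% of coding genes. For Lhx5, 25.3% had at least 5 EoGFP peaks, 16.1% at least 6 EoV5 peaks and 11.1% at least 8 EoVP16 peaks. The 5 BraGFP peaks of Irx3 were reached by 14.7% of coding genes, and its 4 BraGFP peaks within 10 kb by 6.64%. Pax6 stood in the middle, with 51.6% of coding genes having at least its 3 EoGFP peaks and 47.1% at least its 4 EoVP16 peaks.

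Some combinations of lists were chosen after their values were seen and are given as descriptions. Peaks of all 4 lists lay near Pou3f1, Nes, Pax6 and Irx3, 4 of the 6 genes, against 68.8% of coding genes. Lhx5 had peaks in the 3 Eomes lists and none in BraGFP, a pattern of 7.73% of coding genes, and 0.772% had at least 5 EoGFP peaks with no BraGFP peak, as Lhx5 did. The size of that pattern depends on the settings. The EoV5 and EoVP16 lists were also cut to their 27588 tallest peaks and EoGFP to its 27588 widest, the length of the BraGFP list. Lhx5 then kept 3 EoGFP, 3 EoV5 and 4 EoVP16 peaks. In the stronger 50% of each list, by the same rankings (width for BraGFP too), it kept 2 in each of these 3 lists. By nearest coding gene it had 3, 4 and 6. These settings can only remove peaks, so the absence of BraGFP peaks could not change under them. Within 100 kb Lhx5 had 12 EoGFP, 1 BraGFP, 13 EoV5 and 14 EoVP16 peaks, so BraGFP was not absent there. The opposite pattern was that of Nkx6-2, with 2 BraGFP peaks and none of EoGFP or EoV5, where 0.85% of coding genes had at least 2 BraGFP peaks and neither of the others. By nearest coding gene, or in the wider 50% of the BraGFP list, Nkx6-2 had 1 BraGFP peak. Within 100 kb it had 2 EoGFP, 3 BraGFP, 2 EoV5 and 2 EoVP16 peaks, so its pattern depends on the 50 kb limit. BraGFP peaks outnumbered EoGFP peaks at Irx3 and Nkx6-2, as at 24.0% of coding genes. Nes had 8 more EoGFP than BraGFP peaks, a margin reached by 0.42%, but by nearest coding gene it had 1 EoGFP and 2 BraGFP peaks. Pou3f1 had 5 more EoVP16 than EoV5 peaks, a margin reached by 4.76%, and by nearest coding gene it had 5 and 2.

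**Figure D2:**
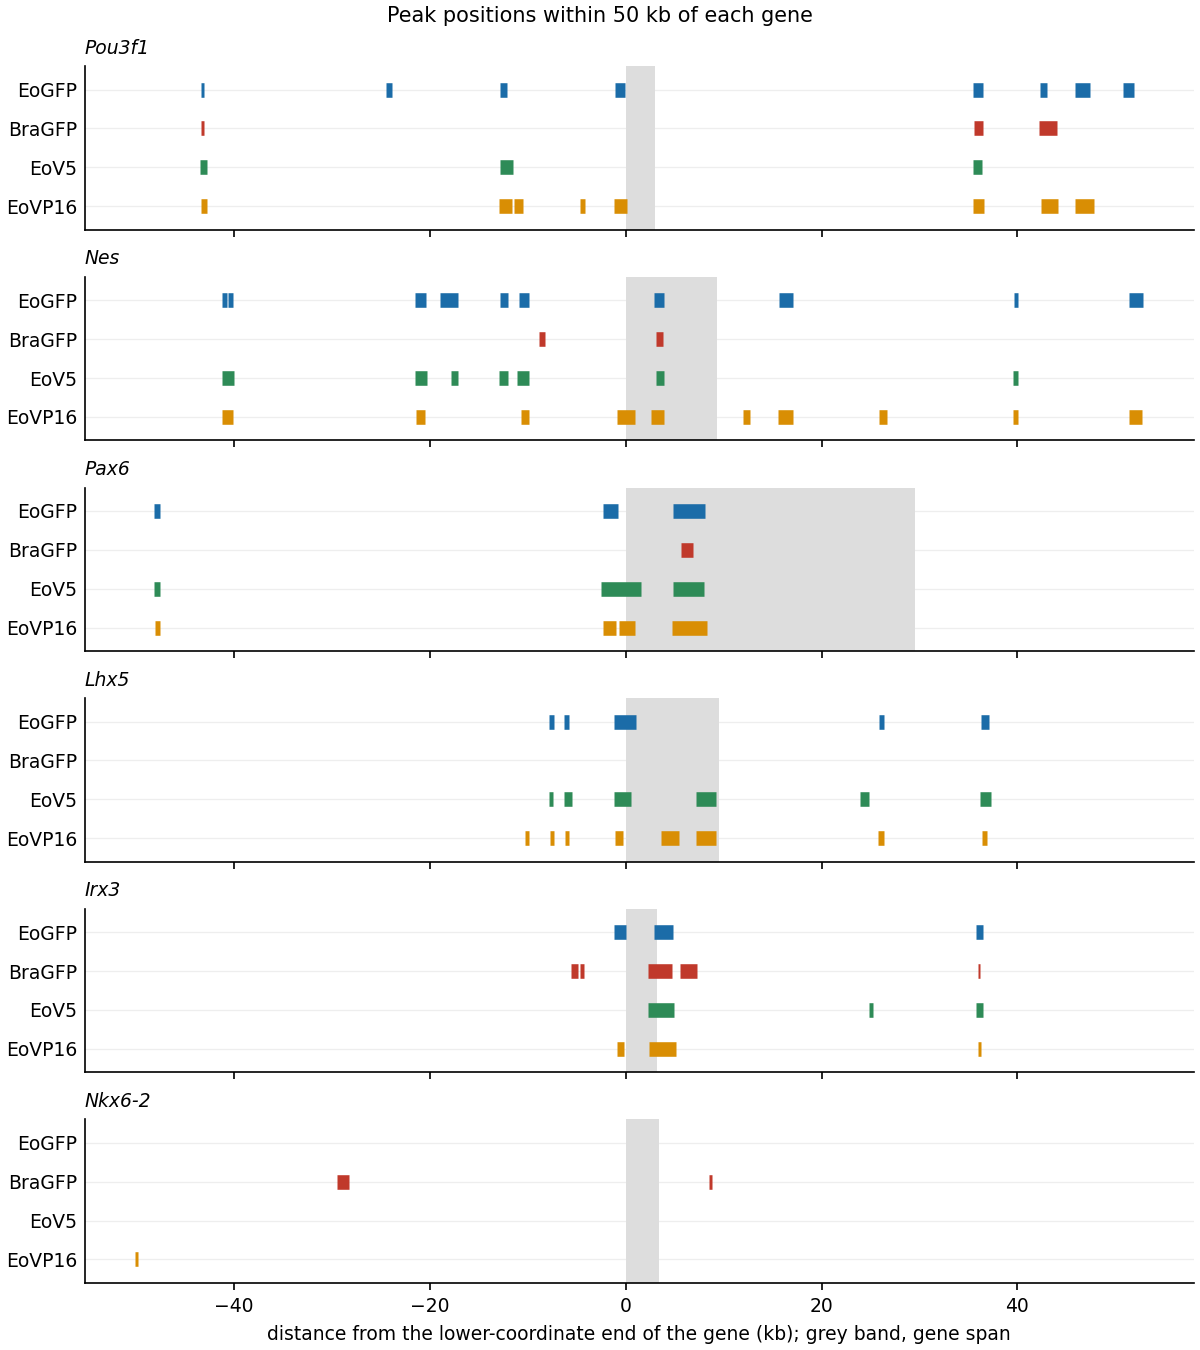
Peaks of the 4 lists as blocks around each gene, with distance from the gene's lower-coordinate end in kb on the horizontal axis and the gene span in grey. Blocks stack over the inside of Pax6 and the upper end of Irx3 in all 4 lists, Lhx5 has blocks in the 3 Eomes lists and none in BraGFP, and the EoVP16 block of Nkx6-2 sits 49.9 kb away at the edge of the window.

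Pou3f1 lies at chr4:124657646-124660655. The EoVP16 list had a peak over its lower end at chr4:124656467-124657752, a low one of 46 fragments (33.7 to 61.4). The EoGFP peak that overlaps it, at chr4:124656546-124657537, ended just short of the gene. EoV5 and BraGFP had no peak within 10 kb of the gene. The tallest EoV5 peak near Pou3f1 lay 12.2 kb below it at chr4:124644784-124646141, with 370 fragments (333 to 410), taller than or equal to 94.5% of the EoV5 list. EoVP16 and EoGFP also had a peak there, and the EoVP16 one reached 89 fragments (71.5 to 110), at percentile 85.6 of its list. BraGFP had none, so this was a site of the 3 Eomes lists.

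Farther from Pou3f1, 2 of its 10 sites were held by all 4 lists. A site is a run of peaks from any of the lists that overlap by at least 1 bp. The nearer of these lay 33.1 kb from Pou3f1 at Utp11, a ribosome biogenesis gene, where the EoVP16 peak at chr4:124693132-124694281 had 92 fragments (74.2 to 113) and was the tallest EoVP16 peak near any of the 6 genes. The EoV5 peak at Utp11 had only 66 fragments (51.0 to 84.0), at percentile 11.9 of its list. The other lay 43.1 kb from Pou3f1, where EoV5 had 140 fragments (118 to 165) at chr4:124614177-124614873 and EoVP16 had 71 (55.5 to 89.6). There the BraGFP peak was 320 bp wide and the EoGFP peak 341 bp, both among the narrowest of their lists at width percentiles 9.11 and 0.594. All 3 BraGFP peaks near Pou3f1 overlapped an EoGFP and an EoVP16 peak. Of the 8 EoGFP peaks, 3 overlapped an EoV5 peak and 6 an EoVP16 peak.

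Nes lies at chr3:87971093-87980451 on the plus strand. All 4 lists had a peak inside it, with EoVP16 at chr3:87973663-87975038, EoGFP at chr3:87973968-87974987, EoV5 at chr3:87974140-87974994 and BraGFP at chr3:87974220-87974905. The EoVP16 peak had 79 fragments (62.5 to 98.5), at percentile 80.1 of its list, and the EoV5 peak 76 fragments (59.9 to 95.1), at percentile 27.3. The files used here hold no exons, so whether the peak lies in an exon or an intron is not given. The start of Nes was covered by 1 list alone, an EoVP16 peak at chr3:87970157-87971988 with 39 fragments (27.7 to 53.3).

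Most of the other peaks counted for Nes were closer to a neighbour. Nes was the nearest coding gene of 1 of its 10 EoGFP peaks, 2 of 2 BraGFP, 1 of 7 EoV5 and 3 of 10 EoVP16 peaks. Crabp2, which encodes a retinoic acid binding protein, was nearest to 4 EoGFP, 4 EoV5 and 2 EoVP16 peaks and to no BraGFP peak. Bcan, which encodes the brain proteoglycan brevican, was nearest to 2 EoGFP, 1 EoV5 and 3 EoVP16 peaks. The tallest EoV5 peak near Nes, with 131 fragments (110 to 155) at chr3:87958170-87959076, lay 12.5 kb from Nes with Crabp2 nearest. The high counts of Nes are thus counts of its neighbourhood.

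Pax6 lies at chr2:105668896-105698410 on the plus strand. Each of the 4 lists had a peak inside the gene over the same stretch. EoVP16 held chr2:105673620-105677240 with 63 fragments (48.4 to 80.6), EoV5 chr2:105673736-105676913 with 207 fragments (180 to 237), EoGFP chr2:105673708-105677026 and BraGFP chr2:105674548-105675783. The peaks of the 3 Eomes lists were 3621, 3178 and 3319 bp wide (EoVP16, EoV5 and EoGFP), at width percentiles 99.6, 98.9 and 99.7, and the BraGFP peak was 1236 bp wide at percentile 89.4. This was the only BraGFP peak near Pax6 within 50 kb, and the next lay 56.7 kb away.

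The start of Pax6 was covered in 2 of the Eomes lists. An EoV5 peak of 4043 bp at chr2:105666407-105670449, wider than or equal to 99.6% of its list, ran over the start with 118 fragments (97.7 to 141). EoVP16 had 2 peaks there, with 53 fragments (39.7 to 69.3) before the start and 41 fragments (29.4 to 55.6) over it. The EoGFP peak at chr2:105666529-105668057 ended before the start. A further site lay 47.9 kb upstream, close to the edge of the window, with 264 EoV5 fragments (233 to 298) at chr2:105620698-105621351, 54 EoVP16 fragments (40.6 to 70.5) and an EoGFP peak. All 3 Pax6 sites were thus shared by the 3 Eomes lists, and Pax6 was the nearest coding gene of all its 11 peaks.

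Lhx5 lies at chr5:120431886-120441457. EoGFP had a peak over its lower end at chr5:120430673-120432962, and EoV5 had one at chr5:120430682-120432414 with 88 fragments (70.6 to 108). The EoVP16 peak at the same site, chr5:120430750-120431603 with 39 fragments (27.7 to 53.3), ended before the gene. The EoGFP peak was 2290 bp wide, at width percentile 97.7. Inside the gene EoV5 had 1 peak of 66 fragments (51.0 to 84.0) and EoVP16 had 2 of 36 and 40 fragments, all below percentile 20 of their lists. The tallest EoV5 peak near any of the 6 genes was counted for Lhx5, with 582 fragments (536 to 631) at chr5:120468063-120469190, at percentile 97.9. It lay 27.2 kb from Lhx5 and inside Sdsl, a gene for a serine dehydratase-like enzyme. EoVP16 reached 83 fragments (66.1 to 103) there, at percentile 82.5, and EoGFP had a peak too. The nearest BraGFP peak was 87.4 kb from Lhx5.

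Irx3 lies at chr8:91798511-91801654 on the minus strand with no other coding gene within 50 kb. All 4 lists had a wide peak over its start. EoV5 held chr8:91800737-91803451 with 171 fragments (146 to 199, percentile 78.4), EoVP16 chr8:91800888-91803669 with 79 fragments (62.5 to 98.5, percentile 80.1), BraGFP chr8:91800805-91803220 and EoGFP chr8:91801347-91803300. The BraGFP peak was 2416 bp wide, at width percentile 99.3. A second site in all 4 lists lay 33.0 kb upstream, with 344 EoV5 fragments (309 to 382, percentile 93.7) at chr8:91834300-91835035 but 41 EoVP16 fragments (29.4 to 55.6, percentile 21.7), and a BraGFP peak of 289 bp. The order of these sites was therefore reversed between EoV5 and EoVP16: the distal one was the taller in EoV5 and the one at the start the taller in EoVP16.

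BraGFP also had 3 peaks at Irx3 that no Eomes list held. They lay at chr8:91804020-91805832, 3.27 kb upstream of the start, and past the end of the gene at chr8:91793816-91794270 and chr8:91792879-91793614, 4.47 and 5.27 kb away. The upstream one was 1813 bp wide, at width percentile 97.5. In the other direction, EoGFP and EoVP16 shared a site just below the lower end of Irx3, chr8:91797329-91798509 in EoGFP, where BraGFP and EoV5 had no peak. Nkx6-2, at chr7:139579376-139582797 on the minus strand, had a BraGFP peak of 356 bp at chr7:139587846-139588201, 5.23 kb upstream of its start. Its other BraGFP peak, of 1269 bp at chr7:139549839-139551107, lay 28.9 kb away inside Inpp5a, a gene of inositol phosphate metabolism. The only Eomes-construct peak, an EoVP16 peak of 48 fragments (35.4 to 63.6), was also inside Inpp5a at 49.9 kb. The nearest EoGFP and EoV5 peaks were both 70.4 kb from Nkx6-2.

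The promoters of Pax6 and Irx3 are shown because they held the summits of EoVP16 peaks, Irx3os because all 4 lists covered it, Nes because EoVP16 alone did, and Nkx6-2 because no list did. The windows, from RefSeq (GRCm38.p6), run from 250 bases before the annotated start to 50 after it and are printed 5′ to 3′ on the gene's strand. RefSeq windows were matched for Nes, Pax6, Irx3 and Nkx6-2. Capitals mark the 21 bases around the EoVP16 summit in Pax6 and Irx3, and the letters GTGTGA in Irx3os. Nes and Nkx6-2 have neither and carry no capitals.
Pax6 (first start, chr2:105668646-105668945, plus strand): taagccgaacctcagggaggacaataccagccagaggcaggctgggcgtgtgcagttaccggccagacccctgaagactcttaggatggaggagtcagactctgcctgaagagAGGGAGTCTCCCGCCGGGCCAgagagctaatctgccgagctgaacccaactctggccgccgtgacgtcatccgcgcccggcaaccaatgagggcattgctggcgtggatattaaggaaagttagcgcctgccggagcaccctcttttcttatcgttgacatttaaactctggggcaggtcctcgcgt
Irx3 (chr8:91801605-91801904, minus strand): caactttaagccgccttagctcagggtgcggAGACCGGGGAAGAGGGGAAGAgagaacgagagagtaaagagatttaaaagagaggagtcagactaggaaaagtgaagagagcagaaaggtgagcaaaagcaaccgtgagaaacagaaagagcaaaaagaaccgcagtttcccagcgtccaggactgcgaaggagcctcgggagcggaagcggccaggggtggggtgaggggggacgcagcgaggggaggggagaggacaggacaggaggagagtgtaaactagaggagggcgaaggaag
Irx3os (chr8:91803086-91803385, plus strand): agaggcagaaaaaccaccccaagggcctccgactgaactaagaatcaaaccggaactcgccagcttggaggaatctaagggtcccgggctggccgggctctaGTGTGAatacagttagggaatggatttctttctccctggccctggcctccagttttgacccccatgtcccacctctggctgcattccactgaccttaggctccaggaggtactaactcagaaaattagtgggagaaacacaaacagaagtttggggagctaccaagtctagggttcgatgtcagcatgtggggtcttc
Nes (chr3:87970843-87971142, plus strand): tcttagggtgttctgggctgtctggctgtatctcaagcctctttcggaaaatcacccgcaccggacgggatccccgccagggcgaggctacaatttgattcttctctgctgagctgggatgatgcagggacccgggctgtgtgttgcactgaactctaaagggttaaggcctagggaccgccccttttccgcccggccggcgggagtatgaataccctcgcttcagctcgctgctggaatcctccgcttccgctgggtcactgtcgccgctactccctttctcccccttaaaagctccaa
Nkx6-2 (chr7:139582748-139583047, minus strand): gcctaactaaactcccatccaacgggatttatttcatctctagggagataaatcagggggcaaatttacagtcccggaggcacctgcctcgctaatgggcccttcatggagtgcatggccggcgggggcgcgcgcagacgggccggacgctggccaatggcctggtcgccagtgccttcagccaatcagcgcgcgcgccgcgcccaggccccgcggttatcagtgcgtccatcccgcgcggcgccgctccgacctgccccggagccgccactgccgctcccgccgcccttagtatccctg

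The Irx3 window was overlapped by peaks of all 4 lists, the first Pax6 window by EoV5 and EoVP16, the Nes window by EoVP16, and the second Pax6 window and the Nkx6-2 window by none. Over all 32851 windows, EoVP16 peaks overlapped 38.5%, EoGFP 30.3%, EoV5 24.1% and BraGFP 15.8%. The EoVP16 summits lay at position -127 from the Pax6 start and -209 from the Irx3 start, in bases, where minus means before the start. The core T-box motif GGTGTGA, searched on both strands, was in none of the 16 windows within 50 kb of the 6 genes, which belong to 14 genes, and in 3.98% of all windows. That search says only that these letters are not in these windows, and neither the Pou3f1 start nor Lhx5 and its neighbours were among the windows searched. The shorter GTGTGA, which lies inside GGTGTGA and was added after the longer search, was in 2 of the 16 windows, Irx3os and Gm39222, both at Irx3, against 14.5% of all windows. In all windows GGTGTGA was about as frequent with a peak as without one: 3.89% against 4.02% in EoGFP, 4.17% against 3.94% in BraGFP, 4.56% against 3.79% in EoV5 and 3.63% against 4.2% in EoVP16. The shorter GTGTGA had lower shares in windows with a peak than without one in all 4 lists: 11.5% against 15.8% in EoGFP, 12.5% against 14.9% in BraGFP, 12.6% against 15.1% in EoV5 and 10.8% against 16.8% in EoVP16. A window counted as having a peak if any part of the peak overlapped it, so the summit may lie outside the window. Windows with and without a peak were not matched for base makeup. Whether the motif is enriched at the summits was not tested. The printed windows also differed in base makeup: Nkx6-2, with no peak, held 32 CpG pairs, Nes and Pax6 18 each, Irx3 14 and Irx3os, covered by all 4 lists, 6, against a median of 7 over all windows. The windows not printed did not keep this order. Rrnad1 (34 pairs), Fhl3 (29) and Isg20l2 (29) were covered by 3 lists each, and Gm38545 (6), Hapln2 (2) and the second Pax6 window (16) by none. Some kept it, such as Bcan (24), which no list covered. The Gm33031 windows (49 and 48), also covered by none, overlap each other and the Nkx6-2 window, so they repeat that locus.

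Heights near the 6 genes spanned most of each list. The 22 EoV5 peaks ranged over 61 to 582 fragments with a median of 103.5, against a median of 99 over the whole EoV5 list. The 34 EoVP16 peaks ranged over 36 to 92 fragments with a median of 51.5, against 54 over the whole EoVP16 list. The median height percentile was 53.0 in EoV5 and 46.6 in EoVP16, close to the middle of each list. In EoV5 the tallest peak lay more than 10 kb from the gene for all 5 genes with at least 3 peaks (Pou3f1, Nes, Pax6, Lhx5 and Irx3). Over the 11566 coding genes with at least 3 EoV5 peaks this held for 57.7%. In EoVP16 it held for 2 of the same 5 genes, Pou3f1 and Lhx5, and for 54.4% of 13129 coding genes. The distance of 10 kb was chosen after these values were seen.

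**Figure D3:**
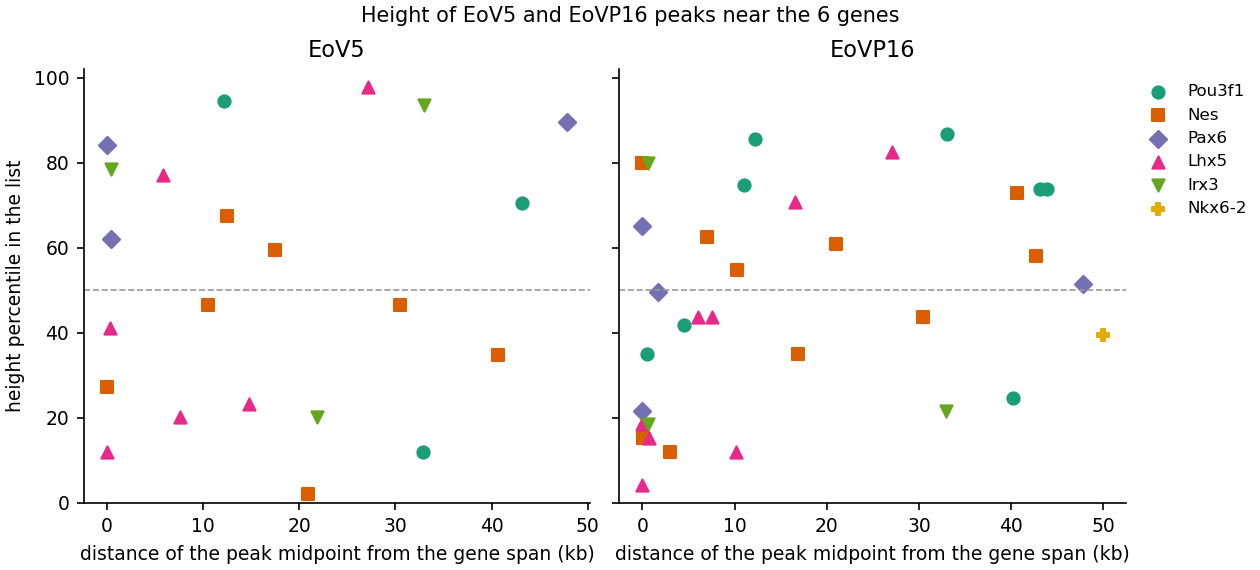
Height percentile within its own list (vertical axis, percent of peaks at or below) against distance of the peak midpoint from the gene span in kb, for EoV5 (left) and EoVP16 (right), with 1 point per peak and the dashed line at the list median. In EoV5 the points above percentile 89 lie 12.2 to 47.9 kb from Pou3f1, Irx3, Lhx5 and Pax6, and the EoVP16 point of Pou3f1 33.1 kb away is the highest of its panel.

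Width gave a picture of its own at the gene bodies. The median width was 955 bp near the 6 genes and 871 bp over the whole list in EoGFP, 736 and 587 bp in BraGFP, 958 and 820 bp in EoV5, and 877 and 793 bp in EoVP16. Peaks among the widest 5% of their list lay within 1 kb of the span of Pax6, Lhx5 and Irx3 in EoGFP (6.82% of coding genes had such a peak) and of Irx3 in BraGFP (5.92%). In EoV5 (7.99%) and in EoVP16 (8.24%) this held for Pax6 and Irx3. Pou3f1, Nes and Nkx6-2 had none in any list. Wide peaks are common at the ends of coding genes in these lists: the EoV5 median was 1487 bp within 1 kb of an end and 745 bp farther away.

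Most EoGFP and EoV5 peaks at these genes overlapped a peak of another Eomes list, and most had no BraGFP peak over them. Of the 29 EoGFP peaks, 25 (86.2%, 69.4 to 94.5) overlapped an EoVP16 peak, against 70.9% of the whole EoGFP list. For EoV5 the count was 20 of 29 (69.0%, 50.8 to 82.7), against 79.6% of the whole list. For BraGFP it was 7 of 29 (24.1%, 12.2 to 42.1), against 27.1%. Of the 22 EoV5 peaks, 19 (86.4%, 66.7 to 95.3) overlapped EoGFP and 18 (81.8%, 61.5 to 92.7) overlapped EoVP16, against 61.2% and 53.1% of the whole EoV5 list, which lie below both intervals. The reverse overlap with EoV5 showed no such gap, with 19 of 34 EoVP16 peaks (55.9%, 39.5 to 71.1) overlapping an EoV5 peak, against 56.9% of the whole EoVP16 list. EoVP16 peaks overlapped EoGFP in 24 of 34 cases (70.6%, 53.8 to 83.2), against 57.9%, and BraGFP in 7 of 34 (20.6%, 10.3 to 36.8), against 25.7%. Of the 13 BraGFP peaks, 7 (53.8%, 29.1 to 76.8) overlapped EoGFP, against 29.3% of the whole BraGFP list, and the interval only just includes that value. Peaks at 1 gene share a neighbourhood, so these intervals treat them as more independent than they are. The whole lists were not limited to peaks near coding genes, and whether gene-near peaks in general show the same gaps was not tested.

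Pou3f1 supplied 3 of the 7 EoGFP peaks that overlapped BraGFP, Irx3 supplied 2, and Nes and Pax6 1 each. None of the 5 EoGFP peaks of Lhx5 overlapped BraGFP. In the authors' merged list of EoGFP and BraGFP regions, 35 regions lay near the 6 genes, of which 7 held peaks of both, 22 of EoGFP only and 6 of BraGFP only. The 6 BraGFP-only regions were 3 at Irx3, 2 at Nkx6-2 and 1 at Nes. Lhx5 had 5 regions, all EoGFP only.

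Joined over the 4 lists, the peaks formed 45 sites near the 6 genes, of 71918 sites in all. Of these 45, 18 (40.0%, with an upper limit of 54.5) were held by 1 list, against 53.1% of all sites, and 6 (13.3%, 6.26 to 26.2) by all 4, against 8.3%. The 6 sites in all 4 lists were 2 at Pou3f1, 2 at Irx3, 1 at Nes and 1 at Pax6. The 3 Eomes lists without BraGFP held 11 sites (24.4%, 14.2 to 38.7), against 14.5% of all sites: 4 at Nes, 4 at Lhx5, 2 at Pax6 and 1 at Pou3f1. BraGFP alone held 6 (13.3%, 6.26 to 26.2), against 23.0%. EoGFP and EoVP16 without the others held 6 (13.3%, 6.26 to 26.2), against 4.5% of all sites, which lies below the interval. It was the only combination of lists whose share over all sites lay outside the interval, with no allowance for comparing many combinations. These 6 sites lay at Pou3f1, Nes, Lhx5 and Irx3, but Fhl3, Bcan, Hapln2 and Sdsl were each the nearest coding gene of 1 of them. The set of all sites was not limited to sites near coding genes. Sites at 1 gene share a neighbourhood, so these intervals also treat them as more independent than they are.

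**Figure D4:**
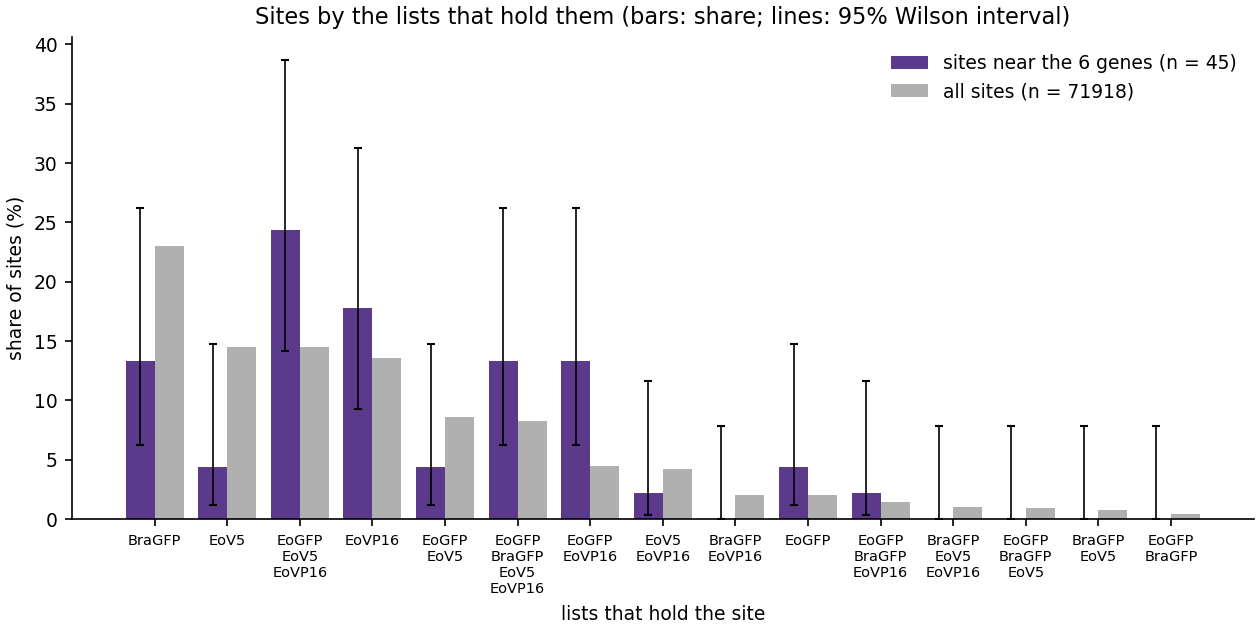
Share of sites (vertical axis, percent) held by each combination of lists, near the 6 genes (purple, n = 45, with 95% Wilson intervals) and over all sites (grey, n = 71918). The tallest purple bar is the 3 Eomes lists without BraGFP at 24.4%, and BraGFP alone stands at 13.3% near the 6 genes against 23.0% of all sites.

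Other neural genes and genes of the streak were counted in the same way, in lists chosen with earlier results of these data known. Longer genes have wider windows here too, so counts, medians and sums also reflect gene length, which was not adjusted for. The median count was 4 EoGFP, 2 BraGFP, 3 EoV5 and 6 EoVP16 peaks for the 6 genes, against 3, 2, 3 and 3 for all coding genes. Among 17 paralogs of the 6 genes, 14 had an EoGFP peak, 12 a BraGFP, 14 an EoV5 and 16 an EoVP16 peak, with a median of 2 peaks in each list. Pax7, a neural crest and muscle paralog of Pax6, had the most with 35 peaks summed over the lists, followed by Lhx1, a streak and kidney paralog of Lhx5, with 23. In the anterior neural plate list, 10 of 10 genes had an EoGFP peak, 6 a BraGFP, 10 an EoV5 and 9 an EoVP16 peak. Its highest sums were 21 at Hesx1 and 18 at Six3, both forebrain homeobox genes.

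The midbrain and hindbrain list had peaks at 10, 9, 9 and 10 of 10 genes (EoGFP, BraGFP, EoV5 and EoVP16), with most at Hoxb1 (19) and Fgf15 (18). The neural tube pattern list had peaks at 8, 5, 8 and 10 of 10 genes in the same order, with most at Gli3 (28), a mediator of hedgehog signals, and Msx1 (18). For neural progenitor and neurogenic genes the counts were 9, 9, 10 and 10 of 10, and the highest sums were 40 at Cdh2, which encodes N-cadherin, and 31 at Ncam1. This was the only one of the 7 other lists with an EoVP16 median (6.5) above that of the 6 genes. In the list of streak and mesendoderm genes, 15, 12, 15 and 15 of 15 had a peak, with medians of 5, 3, 5 and 5, and Mesp1 and Tbx6 had the most, at 24 each. Genes of unrelated tissues had peaks at 11, 10, 13 and 14 of 15, with medians of 2, 1, 2 and 3. Cd4 (26) and Mbp (23) had the most of these, more than any of the 6 genes except Nes with 29.

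**Figure D5:**
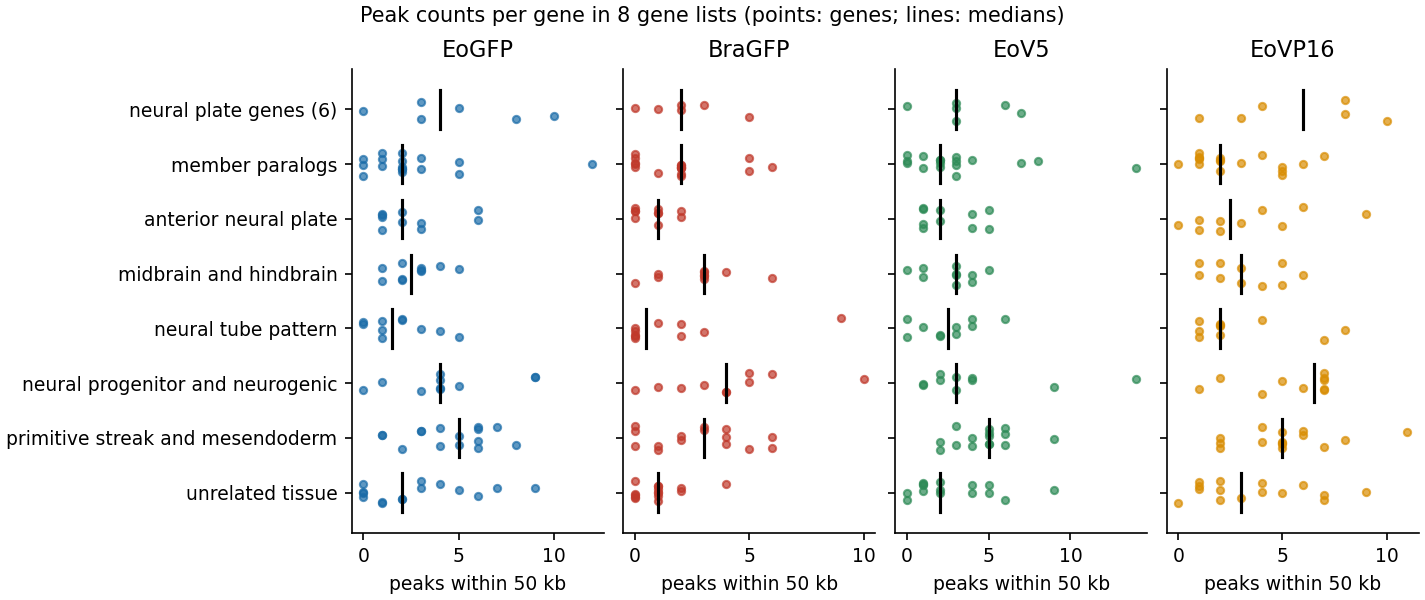
Peaks within 50 kb per gene (horizontal axis, count) in 8 gene lists, one panel per peak list, with 1 point per gene and a line at each list's median. The EoGFP median of the 6 genes is 4, that of the streak and mesendoderm genes 5 and that of their paralogs 2, and the points of all lists overlap.

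Among these other lists, the gene whose 4 counts were nearest to those of each of the 6 was found by the sum of the absolute differences over the 4 lists. Nkx6-2 and Irx6 had the same 4 counts, a distance of 0. Pax6 was nearest to Neurog2, a proneural factor, at a distance of 1, and Irx3 to Lhx2 at 2. Lhx5 was nearest to Mixl1, a homeobox gene of the streak, at 3, with 5, 0, 6 and 5 peaks at Mixl1 (EoGFP, BraGFP, EoV5 and EoVP16). Pou3f1 was equally near to Mesp1 and Wnt3, both streak genes, at 4. Nes was equally near to Cd4, a gene of T cells, and Tbx6, a gene of paraxial mesoderm, at 7. Genes of the streak and of unrelated tissues were thus among the nearest as well as neural genes.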

How the data were processed

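Peaks of 4 ChIP-seq constructs (6 libraries) were described. MACS2 2.1.1.20160309.4, Bowtie2 2.3.4, bedtools 2.27.0, SAMtools 1.3.1 and Picard 1.56.0 were used with mm10/GRCm38, per the submitters' processing notes, and their order, settings and control are not given in the sources used here. How the authors joined the 2 libraries of EoGFP and of BraGFP is not stated. For EoGFP, BraGFP and their merged list, only positions were deposited. The EoV5 and EoVP16 lists, deposited without a header, follow the column order of a MACS2 table. Their signal is each summit's pileup, counted in fragments, and no scaling by the authors is stated. The authors' fold enrichment (ratio) and −log10 p and q values per peak were not used. EoV5 and EoVP16 starts are 1-based. The other lists do not state their convention and were read in the same way, so their starts may be off by 1 base.

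Entries on unplaced contigs (4 in EoGFP, 7 in BraGFP, 7 in EoV5 and 6 in EoVP16) and repeated entries (12, 4, 46 and 26) were left out. Distances run between peak midpoints and the spans of genes in RefSeq GRCm38.p6. Overlap needed 1 bp. Percentiles are the share of peaks at or below a value in the same list. The scripts (Python 3.11.15, pandas 2.3.3, SciPy 1.17.1) were checked on simulated peaks. All 6 genes were named, with the 2 genes of each other list that had the most peaks and the genes nearest by peak counts. The rule took ties in alphabetical order, and the tied Wnt3 and Tbx6 were added after their values were seen. The genes and lists were chosen with earlier results of these data known. The planned motif search at summits needs a genome and was not run, and promoter windows were searched instead.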

Additional observations from a re-analysis of the deposited data

How the results depend on the processing

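There were 48 checks, each of 1 result under 1 other setting, and the same few settings served for all results. Of these, 34 left the value within 1.5 times the count, or within the interval of the share, and 14 moved it. All 14 were counts of peaks near the 6 genes. With a window of 10 kb there were 10 EoGFP, 8 BraGFP, 8 EoV5 and 16 EoVP16 peaks, and with 100 kb there were 49, 25, 46 and 58. The stronger 50% of each list (by pileup in EoV5 and EoVP16, by width in EoGFP and BraGFP) left 16 EoGFP, 11 EoV5 and 16 EoVP16 peaks. Peaks whose nearest coding gene was 1 of the 6 numbered 14 in EoGFP, 13 in EoV5 and 21 in EoVP16. The number of genes with a peak stayed between 4 and 6 in every list under these settings. Shares that were not moved still varied, since their intervals were wide. The share of sites in all 4 lists, 13.3% at first, ranged from 6.67% (stronger 50%) to 18.5% (nearest coding gene). The share of EoGFP peaks overlapping BraGFP, 24.1% at first, ranged from 20.4% (100 kb) to 35.7% (nearest coding gene). The share of BraGFP peaks overlapping EoGFP, 53.8% at first, fell to 40.0% within 100 kb. No paired analysis was possible because the peaks come as 1 list per construct and the numbered libraries share a list. For the same reason no library could be left out. Depth is unknown, so a missing peak, such as BraGFP at Lhx5, says only that none passed that list's threshold.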
